A study of Mus musculus with 4 samples.

Results

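The genes described here encode the proteins of the cytosolic ribosome. They were taken by name from a deposited table of 9114 genes: every row that the table itself names Rpl, Rps or Rplp followed by a digit, or Rpsa, was kept, leaving out the S6 kinases (Rps6k) and names marked as pseudogenes (-ps). This gave 67 genes, 39 of the large subunit and 28 of the small subunit. The rule reads names alone. It was set with earlier results of these data known, and it reaches only genes that have a row in the table. RNA came from sorted lymphatic endothelial cells of the meninges, the membranes around the brain. The donors were aged C57BL/6J males, 20 to 24 months old. All mice had received 5 µL of an AAV1 vector with a CMV promoter into the cisterna magna 4 weeks earlier. In 1 group the vector carried mouse VEGF-C (mVEGF-C), a growth factor that acts on lymphatic vessels, and in the control group it carried the fluorescent protein eGFP. Each group had 2 libraries, and each library pooled the meninges of 10 mice, so that spread between libraries is spread between pools. The CMV promoter is active in many cell types, and the vector was delivered to the fluid around the brain and not to the sorted cells alone. The sort kept live single cells without CD45, the leukocyte antigen, and with CD31 and podoplanin. The design compares the mVEGF-C with the eGFP libraries.

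Ribosomes consist of a small subunit, which holds the mRNA and reads its codons, and a large subunit, which joins the amino acids and passes the growing chain out through a tunnel. Each ribosomal protein is normally present once per ribosome, apart from the paired P proteins of the stalk, and unassembled copies are degraded. Their mRNAs begin with a tract of pyrimidines, the terminal oligopyrimidine (TOP) motif, through which the kinase mTOR and the RNA-binding protein LARP1 set how strongly they are translated. Part of their response to growth factors is known to lie in translation, which RNA sequencing does not measure.

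Start regions of 10 members that the results below turn on are printed to show pyrimidine runs near the annotated start. Such a run need not be the tract with which the mRNA begins. The regions come from RefSeq's promoter table. Each line gives 30 bases, 5′ to 3′, on GRCm38.p6, which is mm10, and capitals mark the longest run of C and T within 50 bases of RefSeq's gene start.
Rps6 (chr4:86857349-86857378, minus strand): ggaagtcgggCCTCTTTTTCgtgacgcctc
Rps7 (chr12:28635910-28635939, minus strand): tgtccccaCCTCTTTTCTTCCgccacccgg
Rps13 (chr7:116334161-116334190, minus strand): tgagtggcgtcaCTTCCTgtgcggcttgat
Rps10 (chr17:27635226-27635255, minus strand): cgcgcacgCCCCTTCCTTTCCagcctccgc
Rpl22 (chr4:152325679-152325708, plus strand): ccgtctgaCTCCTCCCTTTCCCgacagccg
Rpl22l1 (chr3:28805499-28805528, plus strand): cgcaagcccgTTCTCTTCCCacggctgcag
Rplp0 (chr5:115559467-115559496, plus strand): ggaccgcctggTTCTCCTataaaaggcaca
Rpl18 (chr7:45718062-45718091, plus strand): tcgcaggccgCTCTTTCCCCgcccactccg
Rpl10a (chr17:28328572-28328601, plus strand): aagcgctctgCCTTCTTTCCggtttccgcg
Rpl4 (chr9:64173406-64173435, plus strand): agcgtggCCTTCTCCTCTCCCCgtcatggt

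The run was 10 letters in Rps6 and began 1 base before the annotated start. In Rps7 it was 13 letters, in Rps13 6 and in Rplp0 7. The table held 59 start regions for 50 of the 67 members. A run of 8 or more C and T letters within 50 bases of the start was found in 76.3% of them, against 35.7% of all 32851 start regions in the table. Only 25.4% of the members' regions had 5 or more C and T letters directly at the annotated start, against 4.44% of all regions. The letters CTTTCC stood on either strand in 52.5% of the members' 300-base regions and in 26.6% of all regions. The letters CCGGAAG, which belong to the core bound by ETS-family factors, stood in 37.3% and 8.86%. A match describes the letters only, and the annotated start can lie upstream or downstream of the base where transcription begins. Rps7, with the highest fold change of the members, and Rps10, with one of the lowest of its subunit, both held runs of 13 letters.

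Of 80 standard ribosomal proteins, 68 had a row by name, namely 38 of 47 in the large and 30 of 33 in the small subunit. These 68 include genes whose names the rule does not reach, such as Fau and Rack1. The 12 others (Rpl5, Rpl10, Rpl12, Rpl13a, Rpl23a, Rpl27, Rpl29, Rpl34, Rpl38, Rps12, Rps26 and Rps27a) are not analysed here. Beyond the standard set, the rule took in Rpl22l1, a paralogue of Rpl22, and Rpl37rt, which the annotation gives as a transcribed processed pseudogene of Rpl37. All 67 members had a mean of at least 10 normalised counts and were tested, and none was at 0 in any library.

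Depth was 25610683 to 28632461 reads per library over the rows of the table. All 10 markers of lymphatic endothelium had rows, with Mmrn1, Ccl21a and Reln at ranks 5, 6 and 13 of 9063 genes by mean level, and Pdpn, which the sort selects for, at rank 1399. Their summed normalised counts were 517085 and 586160 in eGFP and 655856 and 552478 in mVEGF-C libraries. Of 10 meningeal fibroblast markers 8 had rows, and their sums overlapped between the groups (88565 and 37273 against 98154 and 63172). Of 8 blood endothelium markers 5 had rows, and their sums overlapped (20973 and 44292 against 24083 and 35136). Of 8 mural cell markers 4 had rows (Rgs5, Kcnj8, Abcc9 and Notch3). Their summed normalised counts were 25888 and 22013 in eGFP and 14532 and 11183 in mVEGF-C libraries, lower in both of the latter. Gene by gene, Abcc9 and Notch3 were lower in both mVEGF-C libraries, while the groups overlapped for Rgs5 and Kcnj8. Of 8 lymphocyte markers 1 had a row, Cd4, which was at 107 and 142 against 39.5 and 51.1. Of 9 macrophage markers 2 had rows, Mrc1 and Cx3cr1, and their sums overlapped (27773 and 33267 against 28840 and 23725). Nearly all of these sums was Mrc1, while Cx3cr1 was at 196 and 387 against 328 and 426. Ptprc, Cd68, Csf1r, Cd163, Lyz2, C1qa and Aif1 had no row. The part of these cells in the differences below was not tested. In bulk libraries fewer cells of a type and less RNA per cell cannot be told apart.

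Ribosomal protein genes took a small part of the reads. Large subunit genes held 0.334% and 0.265% of the reads in eGFP libraries 1 and 2, and 0.296% and 0.321% in mVEGF-C libraries 1 and 2. Small subunit genes held 0.208% and 0.178% in eGFP and 0.201% and 0.184% in mVEGF-C libraries. Both subunits together stood at 0.493% ± 0.0703 in eGFP and 0.501% ± 0.00498 in mVEGF-C libraries (mean ± SD, n = 2 each), so the means differed by less than the spread between the eGFP libraries. The 67 genes are 0.735% of the rows. Mitochondrially encoded genes held 21.9% to 24.3% of the reads, and without them in the denominator the share of both subunits was 0.640% ± 0.102 and 0.656% ± 0.0162. The ratio of large to small subunit reads was 1.60 and 1.49 in eGFP and 1.47 and 1.75 in mVEGF-C libraries. The mVEGF-C pair thus held both the lowest and the highest ratio.

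**Figure D1:**
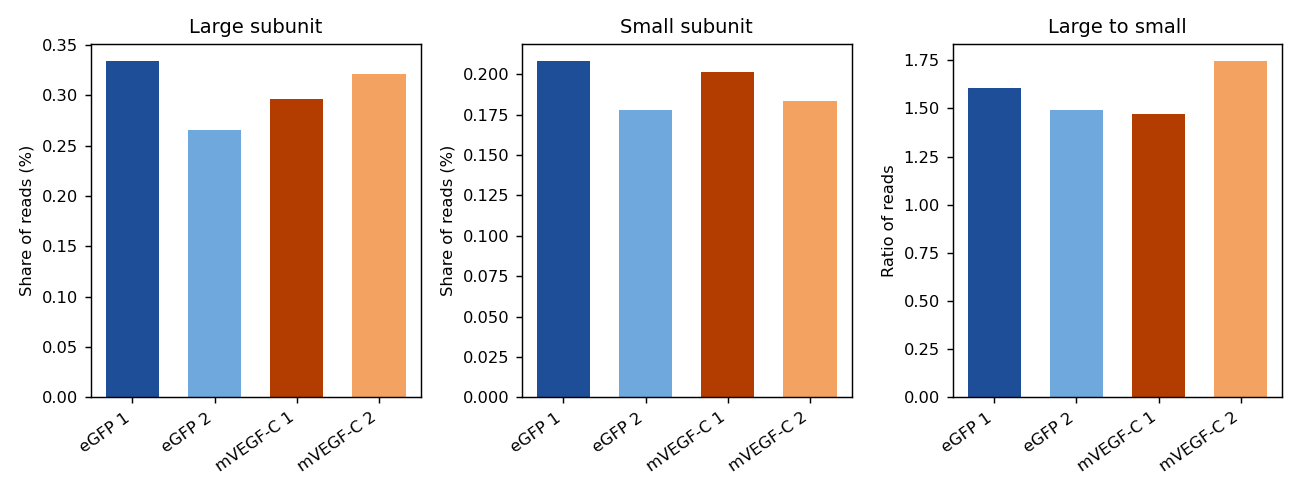
Share of each library's reads on large and small subunit genes (bars from 0, in %) and the ratio of the former to the latter, for the 2 eGFP and 2 mVEGF-C libraries, 1 bar per library and no error bars. In all 3 panels the groups overlap, and the ratio is lowest in mVEGF-C 1 (1.47) and highest in mVEGF-C 2 (1.75).

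Levels per length differed widely among these genes. Normalised counts were divided by the length in kilobases of 1 principal protein-coding transcript per gene, for 66 members. Over the 4 libraries the mean ranged from 9408 per kilobase for Rpl10a, a protein of the mobile L1 stalk, to 73.5 for Rpl22l1, with a median of 2244. The median was 2447 for the large and 2062 for the small subunit. After Rpl10a came Rpl9 (6991 ± 2622, SD over 4 libraries), Rplp2 (6096 ± 3273), Rps4x (6014 ± 2452), Rpl4 (5990 ± 1904) and Rps15 (5680 ± 2779). Near the other end stood Rpsa at 247 ± 68.9, Rps25 at 485 ± 316 and Rpl35 at 517 ± 217. Of the 65 pairs of neighbours in this order, 64 lay closer together than the larger of their SDs, so the order is not resolved gene by gene. The length chosen mattered for some genes: with the median length of a gene's protein-coding transcripts, Rpl22 moved from 4796 to 1110 per kilobase, Rps3 from 1659 to 3325 and Rpl3 from 3015 to 4991.

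**Figure D2:**
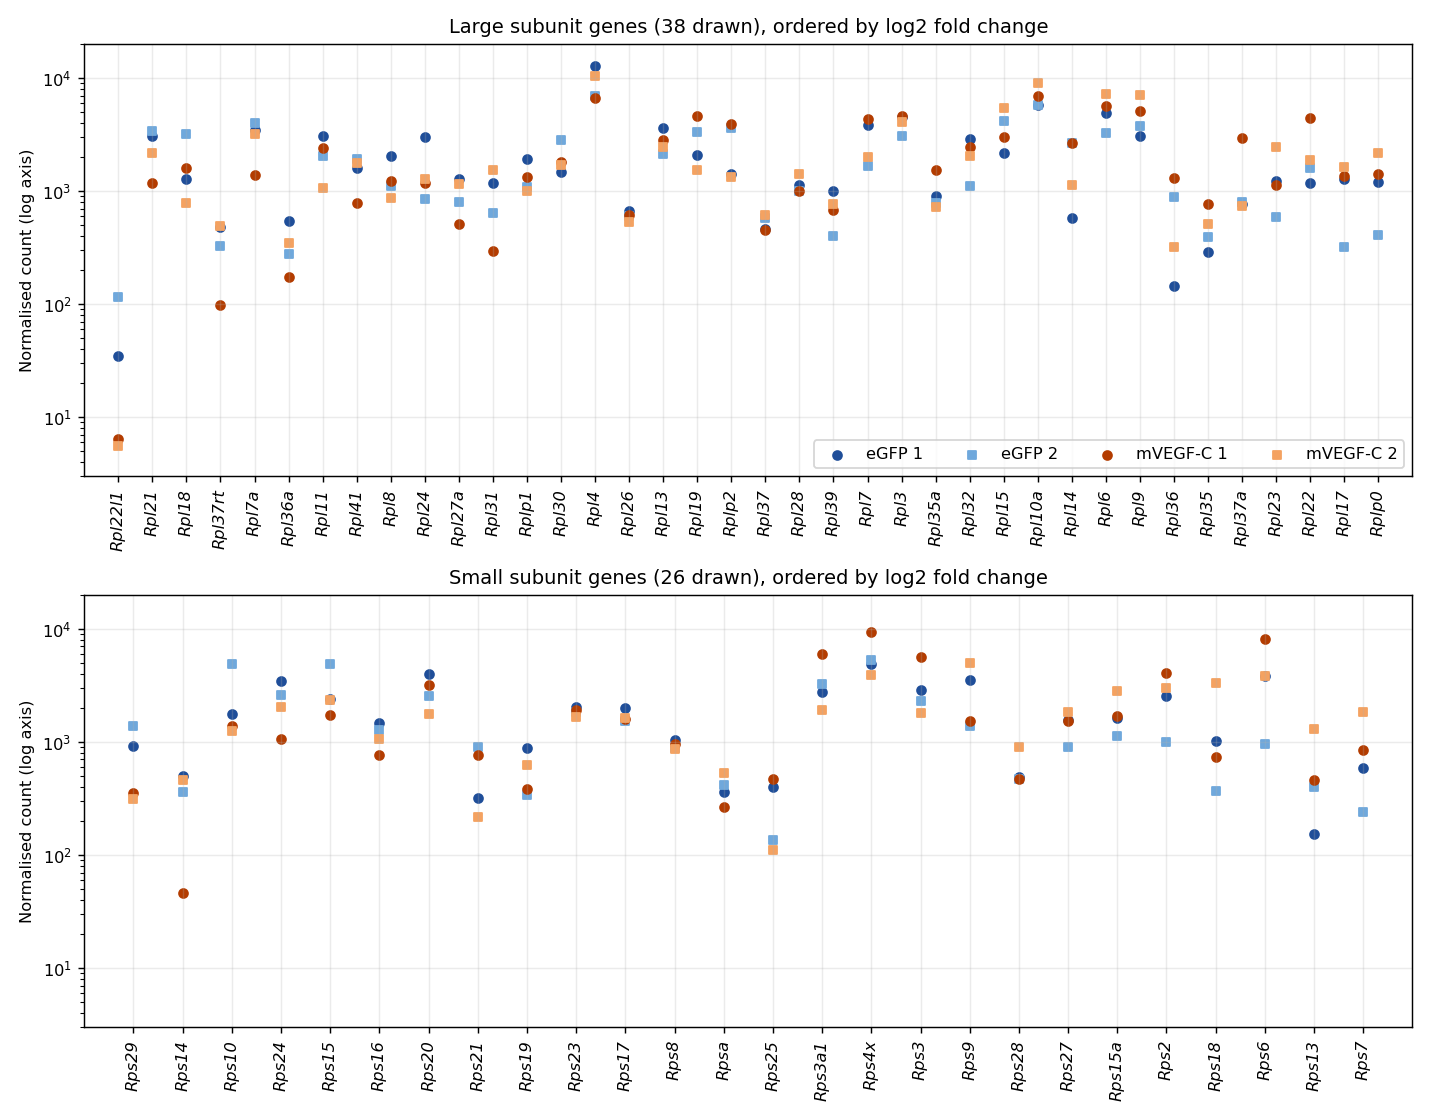
Normalised count in each library (log axis) of 38 large subunit genes, above, and 26 small subunit genes, below, ordered from the lowest to the highest log2 fold change. Blue marks eGFP and orange mVEGF-C libraries, circles replicate 1 and squares replicate 2. Rpl22l1 lies far below all others in both mVEGF-C libraries, and Rps14 is low in mVEGF-C 1 alone.

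Between the groups no ribosomal protein gene was called. Fold changes are on the scale of log2(normalised count + 1), as mVEGF-C minus eGFP, and "called" means an adjusted p under 0.05 from limma, by the Benjamini-Hochberg method over all 9063 genes tested. Of the 67 members, 0 were called in either direction, against 2.14% of all genes (0.828% higher and 1.31% lower). At an unadjusted p under 0.05 there was 1 member, Rpl22l1, against 11.8% of all genes, while edgeR called 0 members and DESeq2 called 1, again Rpl22l1 (background 1.61% and 6.63%). The count was also 0 with a replicate block (background 2.24%), with robust moderation (2.07%), without the variance trend (0.452%), and without eGFP 1 (0.419%), eGFP 2 (0.0552%), mVEGF-C 1 (1.96%) or mVEGF-C 2 (3.22%). Of the members, 34 had fold changes above 0 and 33 below, and their median was 0.0070, against -0.016 over all genes. The median absolute fold change was 0.49, against 0.79 over all genes, and 15 members (22.4%) lay beyond 1 on the log2 scale in either direction, against 40.5%. The members were also more abundant, with a median level of 1521 normalised counts against 828.

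No row of the table had an SD above 2.00 between eGFP or 2.999 between mVEGF-C libraries in log2 reads; where rows of wider spread were left out, the spread is understated and p-values are too small. Standard errors of the members ran from 0.57 to 1.31, and even the narrowest 95% interval, that of Rpl4, reached from -1.29 to 0.95. These standard errors followed a gene's mean level and not the spread between its own libraries. Rpl26, with libraries 0.13 and 0.19 apart within groups on the log2 scale, had 1.15. Rpl36, with libraries 2.60 and 2.03 apart, had 1.18. For 13 members the lower mVEGF-C library exceeded the higher eGFP library (background 19.4%), and for 10 the order was the opposite (background 19.8%). These 23 members are 34.3% of the 67, a share near the 39.2% of all genes. For 53 of the 67 members the difference between groups was smaller than the difference between the 2 libraries of at least 1 group. The same share over all genes was not counted, so this count does not set the members apart.

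**Figure D3:**
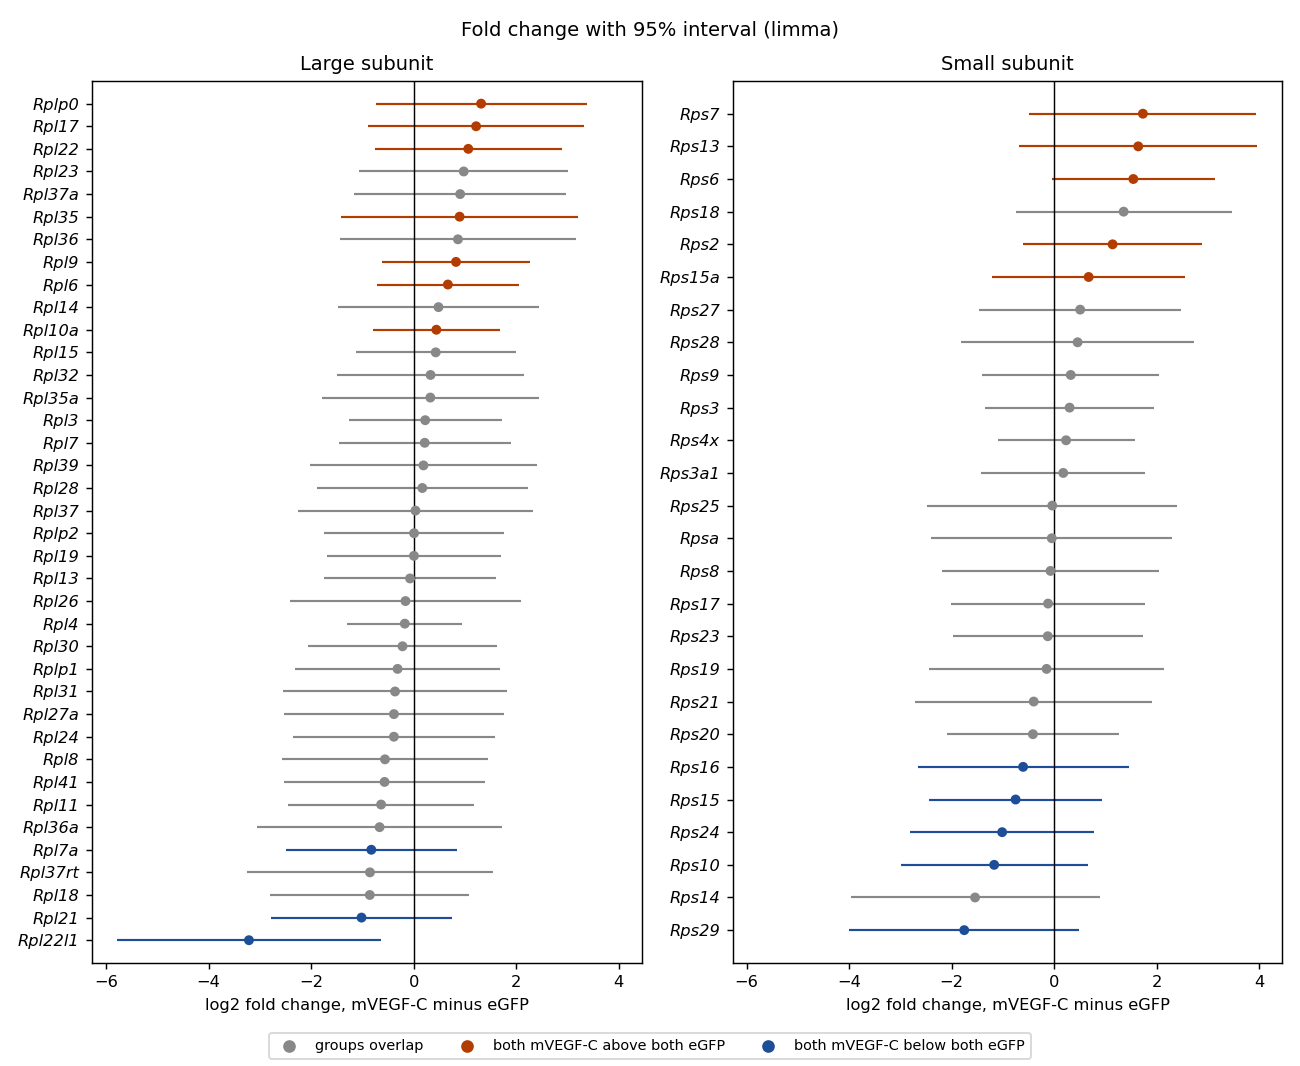
Log2 fold change (mVEGF-C minus eGFP) with its 95% interval from limma, for 38 large subunit genes at left and 26 small subunit genes at right. Colour shows whether both mVEGF-C libraries lay above (orange) or below (blue) both eGFP libraries. The interval of every gene drawn but Rpl22l1 spans 0.

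In the large subunit, the gene with the biggest difference was Rpl22l1 (ENSMUSG00000039221, chromosome 3, 28805436 to 28807424), which encodes a paralogue that can take the place of Rpl22. It had 34.9 and 115 normalised counts in eGFP libraries 1 and 2, and 6.41 and 5.57 in mVEGF-C libraries 1 and 2. In recovered reads these were 39, 108, 6 and 6. Both mVEGF-C libraries lay below both eGFP libraries, while the eGFP libraries themselves differed by 1.70 on the log2 scale. This gave a log2 fold change of -3.21 ± 1.31 (SE), whose 95% interval ran from -5.79 to -0.64 (limma, adjusted p = 0.224). DESeq2 gave -3.65 with an adjusted p = 0.0294, and edgeR -3.60 with an adjusted p = 0.174. Over the other alternatives in limma the adjusted p lay between 0.179 without the variance trend and 0.999 without eGFP 2, where the fold change was -2.36.

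Rpl22 (chromosome 4, 152325742 to 152334071) encodes an RNA-binding protein of the large subunit's outer face that is known from other cells to lower the level of Rpl22l1 mRNA. It had 1178 and 1616 normalised counts in eGFP and 4396 and 1903 in mVEGF-C libraries. Here both mVEGF-C libraries were the higher ones, in the opposite order to its paralogue. The log2 fold change of Rpl22 was 1.07 ± 0.93 (SE; limma, adjusted p = 0.765), 0.46 without mVEGF-C 1 and 1.67 without mVEGF-C 2. Rpl22 was not called, and any relation between the levels of the 2 genes was not tested. Their principal transcripts share no run of 31 letters, so reads of that length cannot be exchanged between these 2 genes. Of the 31-letter words of the Rpl22l1 transcript, 72.4% also occur in transcripts of other genes.

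Proteins of the stalk, which draws elongation factors to the ribosome, were represented by 3 genes. Rplp0 (chromosome 5, 115559467 to 115563727), the stalk's base, had 1204 and 413 normalised counts in eGFP and 1417 and 2182 in mVEGF-C libraries. Both mVEGF-C libraries were higher, and its log2 fold change of 1.32 ± 1.05 (SE) was the highest of the large subunit (limma, adjusted p = 0.729). It stood at 0.55 without eGFP 2, the library with the lowest value, and at 2.09 without eGFP 1. Rplp1 had 1929 and 1080 against 1343 and 1005, and Rplp2 1422 and 3612 against 3898 and 1334. The groups overlapped for both P proteins, which form pairs on Rplp0, with fold changes of -0.31 and 0.0090.

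Rpl11 (chromosome 4, 136028265 to 136053428) binds the 5S ribosomal RNA and, when free, the p53 regulator Mdm2. It had 3045 and 2035 normalised counts in eGFP and 2425 and 1060 in mVEGF-C libraries. The groups overlapped, and the fold change was -0.63 with a 95% interval of -2.45 to 1.19. It was -0.038 without mVEGF-C 2, the lowest library of Rpl11, and -1.23 without mVEGF-C 1.

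Of 9 proteins at the peptide exit tunnel and its rim 8 were tested, 5 of them above 0, with 0 called and a median of 0.0996. Rpl17 (chromosome 18, 74998558 to 75003381), at the tunnel's mouth, had 1286 and 320 normalised counts in eGFP and 1373 and 1628 in mVEGF-C libraries. The fold change of Rpl17 was 1.22 ± 1.07 (SE; limma, adjusted p = 0.767), 0.22 without eGFP 2 and 2.22 without eGFP 1. Rpl4, whose long loop lines the tunnel, was the most abundant member by normalised count, at 12790 and 6931 in eGFP and 6707 and 10420 in mVEGF-C libraries. The groups overlapped in Rpl4 and its fold change was -0.17. Rpl4 alone gave 4.72% to 9.53% of all ribosomal protein reads. Rpl39, one of the smallest ribosomal proteins, had 1012 and 403 against 686 and 777.

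Among the other large subunit genes with high values, Rpl23 had 1223 and 586 normalised counts in eGFP and 1127 and 2470 in mVEGF-C libraries. Its groups overlapped and its fold change was 0.98, between 0.41 (without mVEGF-C 2) and 1.54 (without mVEGF-C 1) with 1 library left out. Rpl9, at the base of the stalk, had 3050 and 3767 against 5089 and 7108, with both mVEGF-C libraries higher and a fold change of 0.83 ± 0.73 (SE). Rpl10a had 5777 and 5788 against 6922 and 8946, a fold change of 0.44 with groups that did not overlap, and of 0.26 without mVEGF-C 2. Rpl3, which reaches toward the peptidyl transferase centre, stood at 0.23, and Rpl7 at 0.22, both with overlapping groups.

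At the low end, Rpl21 had 3062 and 3428 normalised counts in eGFP and 1169 and 2194 in mVEGF-C libraries, both of the latter lower. Its fold change was -1.02 ± 0.90 (SE; limma, adjusted p = 0.768), and -0.56 without mVEGF-C 1. Rpl18 had 1289 and 3208 against 1606 and 788, a fold change of -0.85 with groups that overlapped, and of -0.20 without eGFP 2 and -1.51 without eGFP 1. Rpl37rt, at -0.85, had 477 and 329 against 98.3 and 488, and without mVEGF-C 1 stood at 0.30. Its parent gene Rpl37, with 465 and 576 against 454 and 621, stood at 0.037. Rpl37 and Rpl37rt share 35.3% of the former's 31-letter words, so reads can be assigned to either. Rpl36a, on the X chromosome, stood at -0.66, between -1.15 (without mVEGF-C 2) and -0.18 (without mVEGF-C 1).

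In the small subunit, Rps6 (ENSMUSG00000028495, chromosome 4, 86854660 to 86857412) had the smallest p in the main limma fit. It encodes the protein that S6 kinases phosphorylate when mTOR complex 1 is active. It had 3807 and 958 normalised counts in eGFP and 8113 and 3818 in mVEGF-C libraries. The higher eGFP and the lower mVEGF-C library were nearly equal, and the libraries of each group lay more than 1 apart on the log2 scale. The log2 fold change of Rps6 was 1.54 ± 0.81 (SE), with 95% limits of -0.050 and 3.14 (limma, adjusted p = 0.452). It was 0.55 without eGFP 2 and 2.54 without eGFP 1. The place of Rps6 by p depended on the fit. Without the variance trend in limma its unadjusted p was 0.156, against 0.0746 for Rps29, and in DESeq2 0.149 against 0.0251. In edgeR the order of these 2 genes was the opposite, with 0.0857 for Rps6 and 0.134 for Rps29.

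The highest fold changes were those of Rps7 and Rps13. Rps7 (chromosome 12, 28630854 to 28635953), which is mutated in some patients with Diamond-Blackfan anaemia, had 587 and 241 normalised counts in eGFP and 856 and 1824 in mVEGF-C libraries, a fold change of 1.73 ± 1.13 (SE; limma, adjusted p = 0.62). Rps13 (chromosome 7, 116331505 to 116334195), a protein of the subunit's body, had 154 and 402 against 460 and 1311, a fold change of 1.64 ± 1.19 (SE). In both genes the mVEGF-C libraries were the higher ones and differed between themselves by more than 1 on the log2 scale. With 1 library left out, Rps7 lay between 1.09 (without eGFP 2) and 2.37 (without eGFP 1), and Rps13 between 0.88 (without mVEGF-C 2) and 2.39 (without mVEGF-C 1). Rps18, in the head, had 1019 and 366 against 740 and 3294. The fold change of Rps18 was 1.35. It was 0.28 without mVEGF-C 2, the only high library, and 2.43 without mVEGF-C 1.

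Among the lowest fold changes of the small subunit was that of Rps29. Rps29 (chromosome 12, 69157722 to 69159186), a zinc-binding protein of the head, had 925 and 1392 against 357 and 315. The replicates of Rps29 were 0.59 apart in eGFP and 0.18 in mVEGF-C on the log2 scale, and both mVEGF-C libraries were the lower ones. Its fold change was -1.76 ± 1.15 (SE; limma, adjusted p = 0.618).

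Rps14 (chromosome 18, 60747098 to 60778546), the gene lost in the 5q- form of myelodysplastic syndrome, had 503 and 363 normalised counts in eGFP and 45.9 and 459 in mVEGF-C libraries. A single library was low, and the fold change of -1.54 became 0.10 without mVEGF-C 1. Rps10, in the head, had 1778 and 4924 against 1370 and 1258. Its mVEGF-C libraries were close to each other and below both eGFP libraries, with a fold change of -1.17 ± 0.93 (SE; limma, adjusted p = 0.727). It was -0.44 without eGFP 2, the library with the highest value of Rps10, and -1.91 without eGFP 1.

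Further small subunit genes were named for their roles or as members of paralogue pairs, whatever their values. Rpsa, also known as the precursor of a laminin receptor, had 362 and 419 normalised counts in eGFP and 267 and 530 in mVEGF-C libraries, with a fold change of -0.048. Rps3, which lines the mRNA entry site, had 2894 and 2316 against 5654 and 1796, at 0.30. Rps19, the gene most often mutated in Diamond-Blackfan anaemia, had 882 and 339 against 386 and 630, at -0.15. Rps4x, on the X chromosome, had 4932 and 5319 against 9330 and 3873, at 0.23. Rps27 had 1558 and 895 against 1528 and 1840, at 0.51, and at 0.11 without eGFP 2 and 0.91 without eGFP 1. In all 5 genes the groups overlapped. Of 19 genes mutated in that anaemia 16 were tested, with 6 above 0, a median of -0.15 and 0 called.

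The 2 subunits were then set side by side. Fold changes were above 0 for 22 of 39 large subunit genes, whose median was 0.037, and for 12 of 28 small subunit genes, whose median was -0.061. Neither had a called gene. The difference of the medians was 0.097 on the log2 scale. By pairs of libraries it was 0.18 (mVEGF-C 1 minus eGFP 1), 0.12 (mVEGF-C 1 minus eGFP 2), 0.21 (mVEGF-C 2 minus eGFP 1) and 0.37 (mVEGF-C 2 minus eGFP 2). The sign was the same in the 4 pairs, which share libraries. In each library the median log2 level of small subunit genes was also subtracted from that of large subunit genes. This other measure had a pooled SD of 0.24 between the libraries of a group. The value of 0.097 is smaller, but it is a difference of median fold changes, so the measures are unlike. The large and small subunit medians were 10.33 and 10.64 in eGFP 1, and 10.11 and 10.24 in eGFP 2. They were 10.44 and 10.235 in mVEGF-C 1, and 10.47 and 10.71 in mVEGF-C 2. By this other measure the groups overlapped, and the sign was not the same in the 4 pairs. Leaving out Rpl22l1 and Rpl37rt, the median of the large subunit was 0.17. Beyond 1 on the log2 scale in either direction lay 10 of 28 small subunit genes (35.7%), a share near the 40.5% of all genes. In the large subunit it was 5 of 39 (12.8%). The median absolute fold change was 0.56 in the small and 0.48 in the large subunit, against 0.79 over all genes. Groups did not overlap for 12 small subunit genes (5 higher, 7 lower) and 11 large subunit genes (8 higher, 3 lower), 42.9% and 28.2% against 39.2% of all genes. No test of these counts was made, because genes of a library are not replicates.

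Spread between libraries of a group was slightly smaller than for the table as a whole. The median absolute difference was 0.74 between the eGFP libraries and 0.87 between the mVEGF-C libraries, against 0.94 and 1.07 over all genes. The biggest differences were 2.60 for Rpl36 within eGFP (144 and 879 normalised counts) and 3.29 for Rps14 within mVEGF-C libraries. The rank correlation of the members' levels across the 67 genes was 0.76 within eGFP and 0.70 within mVEGF-C libraries, and 0.59 to 0.80 between libraries of different groups. Members of 1 library share its depth and amplification, and these coefficients are descriptions.

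Most members share sequence with other genes, which bears on how reads are assigned to them. Each principal transcript was read in words of 31 letters and looked up, on both strands, in the transcripts of all other genes of GENCODE vM21, pseudogenes included. The share of words found elsewhere had a median of 63.4% and reached 99.02% for Rpl35. It exceeded 50% in 50 of the 67 members and was under 10% in 3, Rps3 and Rpl8 among them. For Rps6 it was 84.9%, with 28 other genes holding some of its words, for Rps7 74.2%, for Rps13 87.5% and for Rps10 96.8%. For Rps29 it was 39.2%. Not all of the sharing genes are copies by name. RPS10-NUDT3 held 91.0% of the words of Rps10, and Wdr38 held 61.9% of those of Rpl35. Values of members with a high share are uncertain where reads were divided among the sharing genes. Across the 67 genes the share had a rank correlation of 0.028 with the mean difference within groups and of 0.076 with the absolute fold change, given as descriptions. The 15 other rows of the table that carry ribosomal protein names, amounted to 6.72% of the members' reads, and 0 of them were called. Of these, 14 are marked -ps, and Rps12l1 is listed in the table by its Ensembl identifier and so falls outside the choice by name.

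**Figure D4:**
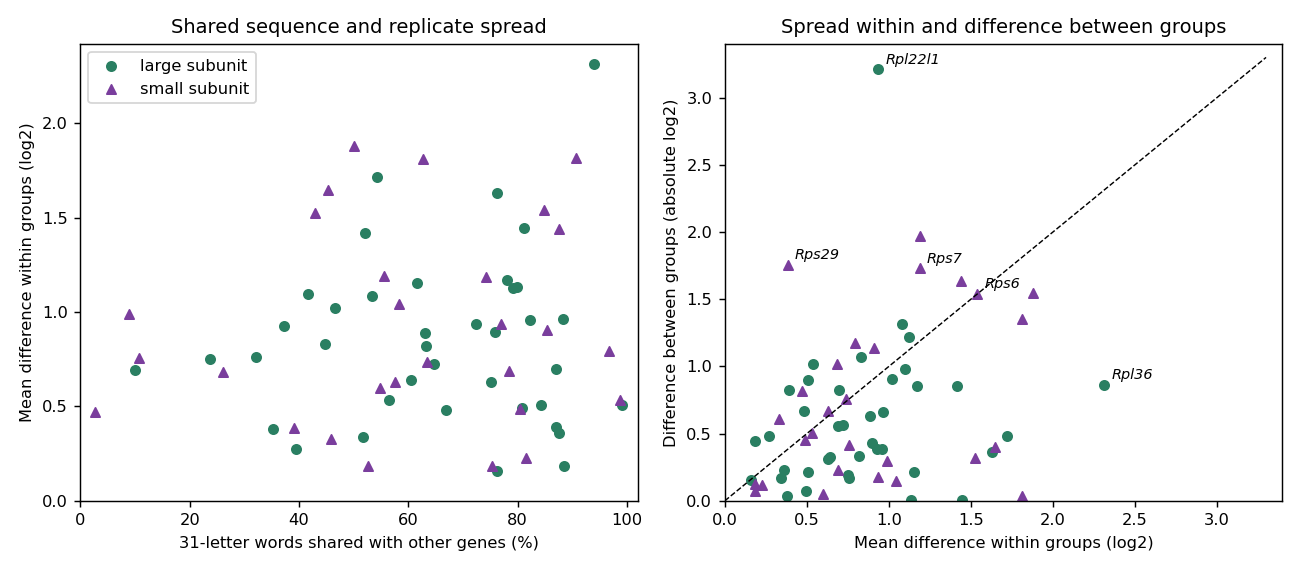
Left, share of each principal transcript's 31-letter words found in other genes (%) against the mean absolute difference between the libraries of a group (log2). Right, that difference against the absolute difference between groups (log2), with the line of equality. Each point is 1 of the 67 members, circles for the large and triangles for the small subunit. No trend is visible at left (rank correlation 0.028). At right 23 members lie above the line, Rpl22l1 farthest. With 2 libraries per group, these are the same 23 members whose groups do not overlap (34.3%, against 39.2% of all genes).

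Ribosome genes outside the naming rule gave similar values. Fau, which encodes a ubiquitin-like protein fused to a small subunit protein, had 227 and 158 normalised counts in eGFP and 319 and 349 in mVEGF-C libraries, with a fold change of 0.81 ± 1.24 (SE) and groups that did not overlap. Rack1, a scaffold on the small subunit's head, had 1878 and 1395 against 741 and 3806. A single library of Rack1 was high and another low, both in mVEGF-C, and its fold change was 0.054. Neither gene was called.

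Genes that work with the ribosome were counted by list. Of 30 other genes listed for TOP mRNAs, mostly translation factors, 26 were tested; 17 stood above 0, their median was 0.14 over the list, and 0 were called. The smallest p values there were those of Eif2s3x, a subunit of the factor that brings the initiator tRNA, at -2.34, and Eif3l, of the initiation scaffold eIF3, at 2.26 (limma, adjusted p = 0.288 and 0.417). Of 80 ribosome biogenesis genes 42 were tested, 24 of them above 0 (list median 0.30), and 0 were called. Nob1, the endonuclease that finishes the small ribosomal RNA, stood at 2.84 and the nucleolar GTPase Gnl3 at -2.84, both with an adjusted p = 0.327 in limma and means under 100 normalised counts.

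Of 21 genes of mTOR complex 1 and the S6 kinases 14 were tested, 7 of them above 0 (list median 0.0041), and 0 were called. The smallest p was that of Rps6ka2, a kinase of the RSK family that acts below ERK, with 1099 and 1559 normalised counts in eGFP and 57.7 and 150 in mVEGF-C libraries, a fold change of -3.80 ± 1.21 (SE; limma, adjusted p = 0.065). Akt1s1 (PRAS40), an inhibitor within mTOR complex 1, had 360 and 321 against 41.7 and 34.4, a fold change of -3.13 ± 1.29 (SE; limma, adjusted p = 0.227). In both genes the mVEGF-C libraries lay far below the eGFP libraries. The replicates of Akt1s1 were close to each other, while the 2 mVEGF-C libraries of Rps6ka2 were not. Of 30 mitochondrial ribosomal protein genes, which serve the separate ribosome of that organelle, 15 were above 0 with a median of -0.020. Of these 30, 1 was called, against a background of 2.14% of all genes. That gene, Mrpl47, had 169 and 1307 normalised counts in eGFP and 3.20 and 53.0 in mVEGF-C libraries, a fold change of -4.97 ± 1.30 (SE; limma, adjusted p = 0.0115). The SD of Mrpl47 exceeded its mean in eGFP (805 against 738) and in mVEGF-C libraries (35.2 against 28.1). Its standard error follows its mean level and does not reflect that spread. A difference between the cytosolic and mitochondrial sets was not tested.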

How the data were processed

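Low-input RNA extraction and linear amplification are described per the labels' protocols. Per the submitters' processing notes, FastQC, Trimmomatic, Salmon and DESeq2 were used on mm10; their versions, the annotation and the strand setting were not found in these sources. The deposited values are a signal, counts divided by 1 size factor per library. All (100%) were whole multiples, within 0.001, of the smallest value above 0, so whole reads were recovered. The deposited rows never exceeded an SD of 2.00 (eGFP) or 2.999 (mVEGF-C) in log2(reads + 1) within a group. limma 3.58.1 in R 4.3.3 (lmFit, eBayes with trend) was run on log2(value + 1) for 9063 genes with a mean of at least 10, two-sided; edgeR 4.0.16 and DESeq2 1.42.0 were run on the recovered reads. The fitting code was tested on simulated data. Genes named with values are the 4 highest and 4 lowest per subunit by fold change and by level per kilobase, the 3 per subunit with the smallest p, the 2 with the smallest p of each other list, called genes, and genes of set roles and paralogue pairs; others named were chosen after their values were seen. Members and lists were chosen with earlier results of these data known. Symbols were found for 1098 of the 1146 rows that carry only an Ensembl ID. Coordinates are from GENCODE vM21 (GRCm38), start regions from RefSeq. Replicates are pools. The p-values of the main limma fit rest on the spread between pools over genes of like mean level, not on each gene's own spread. A few genes that the rule names are counted in the totals but not reported here by name.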

Additional observations from a re-analysis of the deposited data

How the results depend on the processing

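The number of called members was 0 under every alternative run with limma and with edgeR, and 1 with DESeq2 (Rpl22l1). Across the alternatives in the processing and the fit, the median fold change lay between -0.077 (libraries rescaled to 1 total) and 0.074 (quantile normalization), and with a library left out between -0.19 (without eGFP 2) and 0.082 (without eGFP 1). The large minus small difference of median fold changes stayed above 0, from 0.036 to 0.20. Rpl22l1 was not tested with a minimum mean of 50. The replicate block left 0 members called and the median at 0.0070; it called 203 genes in all, against 194. The differences between replicates 1 and 2 of the groups had a correlation of 0.00013 across 9063 genes, so no shared replicate difference was seen. A correlation across genes cannot exclude a pairing in how the pools were prepared, or one that touches few genes. Fold changes close to 0 changed sign. With libraries rescaled to 1 total they were -0.030 for Rack1, -0.047 for Rpl37 and -0.075 for Rplp2, and with upper quartile scaling -0.020, -0.037 and -0.065. Quantile normalization gave -0.077 for Rplp2, 0.077 for Rps25 and 0.10 for Rpsa, edgeR 0.12 and 0.055 for the latter pair, and DESeq2 0.11 and 0.030. With 1 library left out at a time, where the lone sample is assumed to vary like the other group, the signs of these genes changed, with ranges of -1.12 to 1.23 for Rack1, -0.057 to 0.51 for Rpl3, -0.19 to 0.26 for Rpl37, -2.00 to 0.30 for Rpl37rt, -0.47 to 0.86 for Rpl39, -0.61 to 0.27 for Rpl4, -0.39 to 0.82 for Rpl7, -0.73 to 0.11 for Rplp1, -0.76 to 0.78 for Rplp2, -3.19 to 0.10 for Rps14, -0.84 to 0.54 for Rps19, -0.85 to 0.016 for Rps20, -1.08 to 1.00 for Rps25, -0.53 to 1.13 for Rps3, -0.40 to 0.87 for Rps4x and -0.54 to 0.45 for Rpsa. The cause was not tested. The counts over all genes depended on single libraries too: without eGFP 2, 5 genes were called, and without eGFP 1, 38.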
